A study of Mus musculus with 20 samples.

Results

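Ventricular tissue of mice carrying the tetracycline transactivator (tTA) was compared with ventricular tissue of control mice, both without doxycycline. The comparison used 10 of the 20 arrays of the series: the 8 titled tTA with a number and no Doxy, and the 2 titled Fvbn control. Membership followed from the titles alone, so no measured value chose the arrays. The array titled Cardiac tTA expression was left out because its title gives neither a number nor a treatment.

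The study asked how cardiac tTA changes gene expression in FVBN mice, taken here as the FVB/N inbred strain, with wild-type mice as the reference. Its other 2 groups received doxycycline (4 arrays of FVBN + Doxy and 5 of tTA + Doxy). They entered here through the normalization, the floor, the shared spread and the contrasts that involve doxycycline. A keyword of the labels is the alpha MHC promoter, the promoter of Myh6 that is active in heart muscle cells. The labels state no age, sex, number of founder lines, insertion site, or whether arrays hold single or pooled animals, so the p-values describe the spread from array to array, which may be technical. The numbers in the titles form separate runs (8177 and 8182 for the controls, 7288 to 7311 with 9310 and 9322 for tTA). The control numbers lie between those of tTA, and the titles do not say what the numbers mark. A difference in cohort and one in genotype cannot be told apart.

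The tTA protein joins the bacterial tetracycline repressor to a viral activation domain. It binds tetracycline operator sequences and activates genes placed behind them, and doxycycline prevents that binding. Mice that carry tTA alone serve as controls in experiments with tetracycline-regulated transgenes, so their difference from wild-type hearts is part of the baseline of such experiments.

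Deposited intensities had medians of 60.74 to 62.45 on the 19 arrays with a group. On the normalized log2 scale, pairs of tTA arrays correlated across probe sets at 0.9916 to 0.9974, the 2 controls at 0.9960, and pairs across the groups at 0.9923 to 0.9958; probe sets are not independent replicates. Of 14 cardiomyocyte markers 13 were tested, and none was below a log2 level of 7.82 on any of the 10 arrays, against a floor of 3.84. Apart from Ryr2, which was called lower, none differed past the test: Myh6, alpha myosin heavy chain, had a log2 difference of -0.11, Tnnt2, cardiac troponin T, one of -0.08, and Myl2, the ventricular regulatory light chain, one of 0.02. Skeletal muscle, adipocyte, fibroblast, macrophage, lymphocyte, atrial and erythroid markers had no called member, each gene taken by its brightest probe set. Fbln1, a fibroblast marker, was called lower at another probe set (-0.26 ± 0.06, limma adjusted p = 0.0398). The 7 erythroid genes had a summed intensity of 5999 and 6404 on the controls and 3302 to 5985 on the tTA arrays, without overlap. Sums of the endothelial and of the smooth muscle and pericyte markers, given below, did not overlap either. Those of the skeletal muscle, adipocyte, fibroblast, macrophage, lymphocyte and atrial markers did. A full separation of 8 from 2 arrays can give an exact two-sided permutation p no smaller than 0.0444. The part of blood content in other values was not tested. The arrays are bulk tissue, so fewer cells of a type and less RNA per cell cannot be told apart.

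The controls differed from each other in X-linked genes. Xist, the RNA that silences one X chromosome in female cells, read 5.53 on control array 8177, 4.06 on control array 8182, and 5.15, 5.49 and 5.98 (lowest, median and highest) on the tTA arrays. Eif2s3x, an X-linked gene that escapes that silencing, read 9.45 on 8177, 8.97 on 8182, and 9.32, 9.41 and 9.49 on the tTA arrays. Control 8182 was thus below every tTA array at both genes and control 8177 was within the tTA range. With control 8182 as the only control, both genes were called higher in tTA (log2 1.42 and 0.43, limma adjusted p = 0.00389 and 0.00375). With both controls neither was (0.69 ± 0.26 SE and 0.19 ± 0.08, adjusted p = 0.236 and 0.238). The Y-linked Uty lay at or near the floor on all 10 arrays. The labels give no sex, and the part of this difference in other calls was not tested beyond leaving out each control.

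Of 11547 probe sets tested, 191 (1.65%) differed between tTA and FVBN control, 61 higher (0.528%) and 130 lower (1.13%) in tTA. Of these, 173 were linked to 1 gene each, 166 genes in all. Most changes were small: the median size among calls was 0.333 on the log2 scale, 38 exceeded 0.5 (9 higher and 29 lower) and 9 exceeded 1 (5 higher and 4 lower). The median over all tested probe sets was 0.00911. Calls were made with limma on quantile-normalized log2 intensities at a Benjamini-Hochberg adjusted p under 0.05. With arrays scaled to a common median instead, the split was 38 higher and 192 lower.

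The number of calls depended on the arrays and covariates used. With the spread taken from the 10 compared arrays alone it was 122. Without control array 8177 it was 45, and without control array 8182 it was 61. The beta-actin controls at the 3' and 5' ends of the transcript give a ratio often taken as a sign of RNA integrity. Its log2 value was 0.543 and 0.555 on the controls and 0.145, 0.334 and 0.445 (lowest, median and highest) on the tTA arrays, so the groups did not overlap (difference of means -0.226, exact two-sided permutation p = 0.0444, the smallest these numbers of arrays can give). With that ratio as a covariate 24 probe sets were called, of which 23 were among the 191. The Gapdh ratio, another such sign, differed by 0.0252 (exact permutation p = 0.756). Within the 8 tTA arrays, none of 30 relations between the beta-actin ratio and the genes of largest change passed after adjustment over the 30 (smallest adjusted p = 0.601). The strongest was Gnb3 (Pearson r = -0.78, exact permutation p = 0.0285; Spearman rho = -0.79, p = 0.0279; r = -0.82 without the 2 arrays farthest from the median ratio). Of the 30, 18 had a positive r and 12 a negative r. Among the 15 genes of largest fall, all but Ivns1abp and Gja1 had a positive r. Among the 15 of largest rise, all but Gstm5, Tpm2, Gpx3, Prkcd and Wfs1 had a negative r. The ratio was lower in tTA, so most signs ran in the direction of the group difference, and 8 arrays give such relations little power. What part RNA integrity had in the calls was not tested beyond these values. Of the 191 calls, 16 (5 higher and 11 lower) held under every alternative run on all probe sets, among them Gstm5, Tpm2, Clu, Lclat1, Ryr2, Corin and Gja1. Of the 57 calls named by rule, 12 held when either control was left out (both Gstm5 probe sets, Tpm2, Clu, Lclat1, Ryr2, Corin, Pygb, Ablim1, Gja1, Slc8a1 and Hk2), and the other 45 were lost without at least 1 control.

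**Figure D1:**
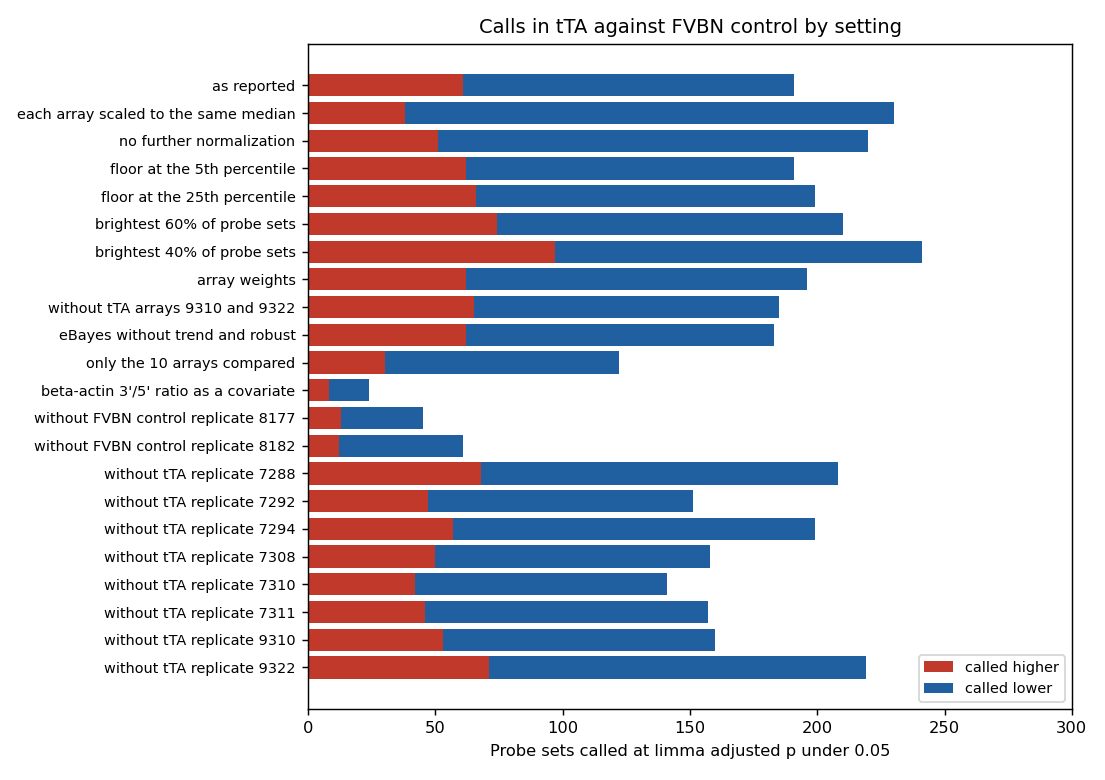
Number of probe sets called higher (red) and lower (blue) in tTA against FVBN control as reported and under each of 21 alternatives. The bars are shortest with the beta-actin covariate (24) and without control array 8177 (45) or 8182 (61).

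**Figure D2:**
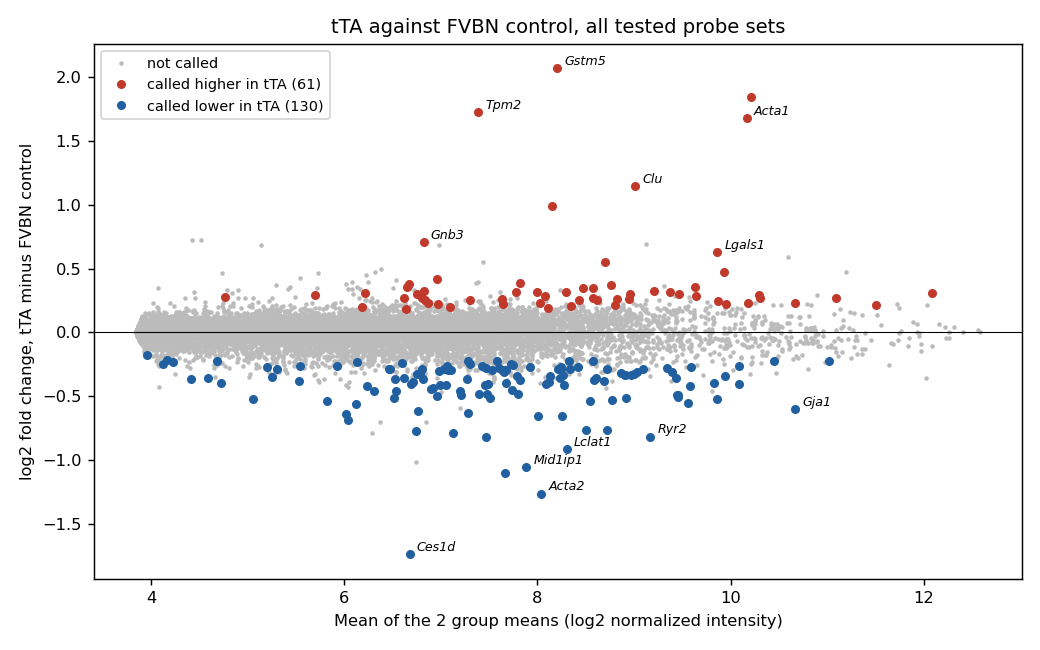
Log2 fold change (tTA minus FVBN control) against the mean of the 2 group means in log2 normalized intensity, 1 point for each of 11547 tested probe sets. The 61 probe sets called higher are red and the 130 called lower are blue; most calls lie within 0.5 of 0, and Gstm5, Tpm2, Acta1, Clu, Ces1d, Acta2 and Mid1ip1 lie beyond 1.

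The rises of largest size were in Gstm5, Tpm2, Acta1 and Clu, and the falls of largest size in Ces1d, Acta2 and Mid1ip1. Genes named here and below were mostly chosen by their calls on these same arrays. A lack of overlap between the groups at a called gene therefore describes the values and adds no support. To show the sequence context of genes that rose (Acta1 and Gstm5) and of genes that fell (Gja1 and Ryr2), the 250 bases before the start in the RefSeq promoter table are given (GRCm38.p6, read 5′ to 3′ along the gene), none of them within the gene's annotated bounds. Capitals mark the CArG box (CC, then 6 bases that are each A or T, then GG, a binding sequence of serum response factor), TATAAA, and TGANTCA, the core of AP-1 sites, searched on both strands. Acta1 is at chr8:123894776-123895025 on the minus strand, Gstm5 at chr3:107895604-107895853 on the plus strand, Gja1 at chr10:56377050-56377299 on the plus strand and Ryr2 at chr13:12106946-12107195 on the minus strand.
Acta1: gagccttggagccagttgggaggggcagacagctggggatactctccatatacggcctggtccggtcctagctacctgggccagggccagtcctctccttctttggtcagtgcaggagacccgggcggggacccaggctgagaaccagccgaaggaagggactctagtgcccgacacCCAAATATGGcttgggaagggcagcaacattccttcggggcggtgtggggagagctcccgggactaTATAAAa
Gstm5: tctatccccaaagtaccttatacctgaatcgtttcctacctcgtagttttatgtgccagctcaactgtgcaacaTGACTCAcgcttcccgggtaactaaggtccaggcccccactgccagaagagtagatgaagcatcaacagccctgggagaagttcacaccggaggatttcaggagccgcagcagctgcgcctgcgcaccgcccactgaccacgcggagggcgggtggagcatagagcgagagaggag
Gja1: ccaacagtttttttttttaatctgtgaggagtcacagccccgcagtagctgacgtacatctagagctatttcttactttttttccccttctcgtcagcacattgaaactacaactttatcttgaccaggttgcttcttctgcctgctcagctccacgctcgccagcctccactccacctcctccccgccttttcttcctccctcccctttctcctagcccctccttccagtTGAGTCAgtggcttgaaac
Ryr2: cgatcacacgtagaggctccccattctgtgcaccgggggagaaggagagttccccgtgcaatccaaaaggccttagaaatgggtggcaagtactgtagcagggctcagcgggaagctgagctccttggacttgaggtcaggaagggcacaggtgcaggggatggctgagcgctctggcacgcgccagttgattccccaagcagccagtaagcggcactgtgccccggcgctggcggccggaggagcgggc
The Acta1 window held 1 CArG box and 1 TATAAA, the Gstm5 and Gja1 windows each held 1 TGANTCA, and the Ryr2 window held no exact match to these 3 patterns. Over all 32851 promoters of the RefSeq table the shares with a match in the same 250 bases were 1.47% for the CArG box, 12.4% for TATAAA and 6.75% for TGANTCA. Of the called genes matched by symbol, 2 of 40 higher and 1 of 93 lower genes held a CArG box, against 1.36% of the 6308 tested genes that were matched. TATAAA stood in 6 of the 40 and 7 of the 93, against 8.96% of the tested genes, and TGANTCA in 4 and 3, against 5.34%. Of 2 further patterns searched and not put in capitals, CANNTG stood in each window and CATTCC in that of Acta1. CANNTG stood in 31 of the 40 higher and 49 of the 93 lower genes, against 58.6% of the tested genes. CATTCC stood in 9 and 8, against 10.9%. Differences between these shares were not tested, and a match describes letters only.

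Gstm5 encodes a mu-class glutathione S-transferase, an enzyme that joins glutathione to reactive compounds. Its probe set of largest change read 7.28 and 7.06 on controls 8177 and 8182 and 8.52, 9.39 and 9.94 (lowest, median and highest) on the tTA arrays. Every tTA array was above both controls. The SD within tTA was 0.52 (n = 8). The level rose 4.2-fold (log2 2.07 ± 0.29 SE, limma adjusted p = 0.000873). A brighter Gstm5 probe set, of a type that can read related genes, rose by 1.84 ± 0.17 (adjusted p = 8.33e-06), and the other 2 had log2 differences of 0.12 and 0.17 and were not called (adjusted p = 0.737 and 0.362). Both kept their calls under all alternatives run on the same probe set.

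Tpm2 encodes beta-tropomyosin, which lies along the actin filament and sets access of myosin to it. It read 6.52 and 6.54 on the controls and 7.89, 8.29 and 8.53 on the tTA arrays. No tTA array came within 1 log2 unit of a control, and the level rose 3.31-fold (1.73 ± 0.16, adjusted p = 1.04e-05). A dimmer Tpm2 probe set stood at -0.06 and was not called (adjusted p = 0.917).

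Acta1 encodes the alpha-actin of skeletal muscle, a minor actin of the adult mouse ventricle. It read 9.20 and 9.45 on the controls and 10.42, 11.02 and 11.68 on the tTA arrays, with array 7288 lowest and 7311 highest. The groups did not overlap, and the level rose 3.2-fold (1.68 ± 0.26, adjusted p = 0.0022). The adjusted p was 0.127 with the beta-actin covariate and 0.0817 without control 8177. Clu encodes clusterin, a secreted chaperone. It read 8.54 and 8.34 on the controls and 9.32, 9.56 and 9.84 on the tTA arrays, again without overlap, and had the smallest p of the comparison (1.15 ± 0.09, 2.21-fold, adjusted p = 4.89e-07). Its other probe set also rose (0.99 ± 0.09, adjusted p = 3.89e-06), and both kept their calls under every alternative.

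Ces1d, a carboxylesterase that splits lipid esters, had the fall of largest size. It read 7.56 and 7.53 on the controls and 5.16, 5.84 and 6.37 on the tTA arrays. All 8 tTA arrays were more than 1 log2 unit below the controls, and the level was 3.34-fold lower (-1.74 ± 0.26, adjusted p = 0.00169). Its brighter probe set fell too (-1.10 ± 0.17, adjusted p = 0.00136). Neither was called with the beta-actin covariate (adjusted p = 0.0995 and 0.114) or without control 8177 (0.0599 and 0.0925).

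Acta2, the alpha-actin of smooth muscle, read 8.77 and 8.58 on the controls and 7.19, 7.37 and 7.68 on the tTA arrays. The tTA arrays lay on both sides of a gap, 4 between 7.19 and 7.26 and 4 between 7.48 and 7.68, all below the controls. The level was 2.41-fold lower (-1.27 ± 0.20, adjusted p = 0.002), with an adjusted p of 0.131 under the beta-actin covariate and 0.0808 without control 8177. The smooth muscle contractile genes beside it did not show this: Myh11, smooth muscle myosin, had a log2 difference of -0.07, Tagln, transgelin, one of 0.03, and Cnn1, calponin, one of -0.01, none called. The list of smooth muscle and pericyte markers had 16 tested genes with a median of -0.0437, and Acta2 and Abcc9 were its 2 calls, both lower. Their summed normalized intensity was 2314 and 2343 on the controls and 1901 to 2098 on the tTA arrays, a sum that includes Acta2 itself.

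**Figure D3:**
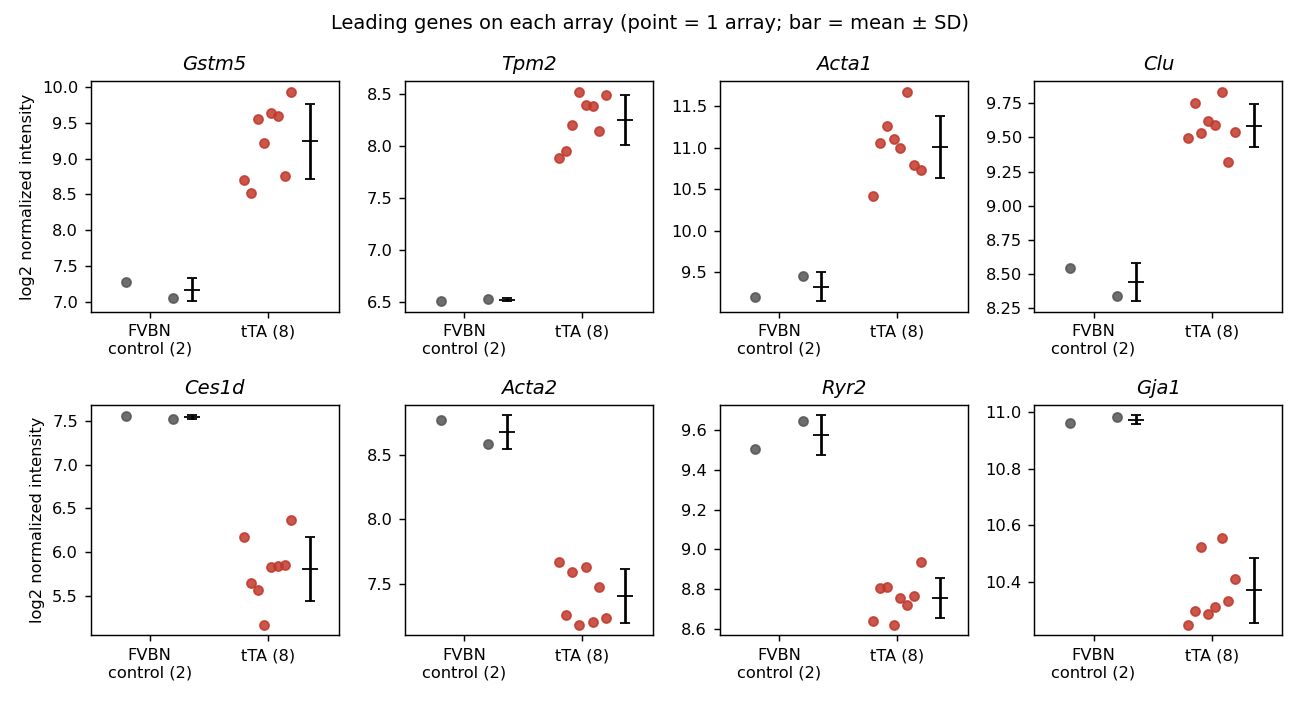
Log2 normalized intensity of 8 leading genes on each of the 2 FVBN control arrays (grey) and 8 tTA arrays (red), with mean and SD beside the points; the vertical axes do not start at 0 and differ between panels. In each panel all tTA arrays lie on one side of both controls. The genes were chosen for their difference on these same arrays, so this separation is no separate support.

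Few sarcomere genes were called. Of 21 tested, 2 rose (Tpm2 and Acta1), 1 fell and 18 were not called, with a median of -0.0252 beside 0.0114 over all 7930 genes; over those genes, each by its brightest probe set, 0.605% were called higher and 1.31% lower. The fall was in Tnnt1, slow skeletal troponin T, which read 7.62 and 7.65 on the controls and 7.10, 7.14 and 7.28 on the tTA arrays (-0.48 ± 0.09, adjusted p = 0.00339). Its other probe set stood at -0.14 and was not called. Of 21 hypertrophy and fetal genes, Acta1 was the 1 that rose, Acta2 and Tnnt1 were the 2 that fell, and 18 were not called. Among the 18, Myh7, beta myosin heavy chain, had -0.33 ± 0.24 (adjusted p = 0.613), Nppa, atrial natriuretic peptide, -0.10 ± 0.16 (0.861), and Nppb, brain natriuretic peptide, -0.32 ± 0.27 (0.667). At Nppb the groups overlapped, with 10.34 and 10.92 on the controls and 9.55, 10.38 and 10.73 on the tTA arrays. Actc1, the cardiac alpha-actin, stood at -0.01 ± 0.09 (adjusted p = 0.993).

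The skeletal muscle markers, listed because Acta1 and Tpm2 are also skeletal genes, had 0 of 18 called by limma, with 2 at an unadjusted p under 0.05. Their summed intensity was 2941 and 3265 on the controls and 2991 to 3471 on the tTA arrays. Mylpf, the fast skeletal regulatory light chain, had a log2 difference of 0.15 and Tnni2, fast skeletal troponin I, one of -0.08.

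Structural genes of the Z-disc, intercalated disc and costamere had 2 rises and 1 fall among 32 tested, with a median of -0.0339. Over all genes 0.605% were called higher and 1.31% lower. Pdlim1, a PDZ and LIM domain protein that binds alpha-actinin, read 8.32 and 8.51 on the controls and 8.90, 8.96 and 9.09 on the tTA arrays, and rose by 0.55 ± 0.09 (adjusted p = 0.000813). Its other probe set stood at 0.01 and was not called. Pdlim1 lost its call with the beta-actin covariate (limma adjusted p = 0.0772) and without control 8177, where it stood at 0.46. Dag1, dystroglycan, rose by 0.25 ± 0.06 (adjusted p = 0.0268) and lost its call under 5 alternatives. These were equal medians, no further normalization, only the 10 arrays, and either control left out. The other Dag1 probe set stood at 0.13 and was not called. Pkp2, plakophilin 2 of the desmosome, fell by 0.54 on the log2 scale (SE 0.11, adjusted p = 0.0101) and a 2nd probe set fell as well (-0.48 ± 0.08, adjusted p = 0.000992). Ablim1, an actin-binding LIM protein, read 7.07 on both controls and 6.28, 6.46 and 6.64 on the tTA arrays, a change of -0.62 ± 0.09 (adjusted p = 0.000396).

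Of 17 calcium handling genes tested, 3 fell, 0 rose and 14 were not called, and the median was -0.0682. Over all 7930 genes 1.31% were called lower and 0.605% higher, so calls were more often lower there too. Ryr2, the channel that releases calcium from the sarcoplasmic reticulum at each beat, read 9.51 and 9.65 on the controls and 8.62, 8.76 and 8.94 on the tTA arrays. The groups were separated by more than 0.5 log2 units, and the level was 1.76-fold lower (-0.82 ± 0.10, adjusted p = 9.66e-05). This call held under every alternative, with an adjusted p of 0.0194 under the beta-actin covariate.

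Slc8a1, the sodium-calcium exchanger that carries calcium out of the cell, read 9.15 and 9.20 on the controls and 8.56, 8.63 and 8.79 on the tTA arrays (-0.52 ± 0.08, adjusted p = 0.000528). Cacna1c, which encodes the pore-forming subunit of L-type calcium channels, fell by less (-0.36 ± 0.08, adjusted p = 0.024). The calcium pump and its storage protein did not differ past the test: Atp2a2 had -0.07 ± 0.09 (adjusted p = 0.818) and Casq2 had 0.00. On the probe set given, Slc8a1 lost its call only with the beta-actin covariate (adjusted p = 0.0772), and Cacna1c lost it also without either control. A dimmer Slc8a1 probe set stood at -0.18 and was not called (limma adjusted p = 0.294). Itpr2, an IP3 receptor, had 1 probe set at -0.77 ± 0.15 (adjusted p = 0.0118), whereas its other tested probe sets stood at -0.24 and 0.03 and were not called.

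In the list of ion channels and coupling, 3 of 25 fell and 0 rose, beside 1.31% of all genes called lower and 0.605% called higher. Cacna1c, given above, was 1 of the 3. The sign of the list's median changed between scalings. Gja1, connexin 43, the main gap junction protein of ventricular muscle, read 10.96 and 10.98 on the controls and 10.25, 10.32 and 10.55 on the tTA arrays. No tTA array reached the controls, and the level was 1.52-fold lower (-0.60 ± 0.07, adjusted p = 7.77e-05), with an adjusted p of at most 0.00655 under all alternatives on that probe set. A dimmer probe set had -0.79 ± 0.21 and was not called (adjusted p = 0.0741). Abcc9, the sulfonylurea receptor subunit of ATP-sensitive potassium channels, fell (-0.66 ± 0.14, adjusted p = 0.0175), while its channel partner Kcnj8 had -0.14 and Kcnj11 had 0.04, neither called.

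Corin is the protease that cuts the precursor of atrial natriuretic peptide. It read 7.67 and 7.36 on the controls and 6.62, 6.72 and 6.92 on the tTA arrays, and was 1.72-fold lower (-0.79 ± 0.10, adjusted p = 0.000245). It held its call under every alternative. Of 13 natriuretic and vasoactive peptide genes tested, each by its brightest probe set, 11 were not called. Corin fell and Agt, angiotensinogen, rose (0.26 ± 0.06, adjusted p = 0.0313). At a dimmer probe set Edn1 of the same list was called lower (-0.22 ± 0.06, limma adjusted p = 0.0424). Its brightest probe set stood at 0.03 and was not called. Gnb3, a G protein beta subunit, read 6.52 and 6.42 on the controls and 6.95, 7.20 and 7.42 on the tTA arrays. It rose by 0.71 ± 0.13 (adjusted p = 0.00485) and was the one call among 25 adrenergic and G protein genes; its adjusted p was 0.261 with the beta-actin covariate, 0.076 without control 8177 and 0.123 without control 8182.

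Most members of the mitochondrial lists had negative log2 differences, and few of them passed. Of 68 respiratory chain and ATP synthase genes, 56 had a negative log2 difference, against 44.7% of all 7930 genes, and the median was -0.09. In this list 5 fell and 1 rose, each gene taken by its brightest probe set, beside 1.31% of all genes called lower and 0.605% called higher. Cyc1 of the list was called higher at another probe set (0.23 ± 0.06, limma adjusted p = 0.0419). Cox6a1, a subunit of cytochrome oxidase, fell most (-0.52 ± 0.08, adjusted p = 0.000884), from 10.14 and 10.09 on the controls to 9.44, 9.54 and 9.78 on the tTA arrays. Ndufa6, Ndufb6 and Ndufv3 of complex I fell (-0.38, -0.22 and -0.29, with Ndufv3 at -0.19 and an adjusted p of 0.528 without control 8177), as did Sdhb of complex II (-0.23), and Slc25a4, the ADP/ATP carrier of heart and muscle, rose (0.21 ± 0.05, adjusted p = 0.0405). Of 63 mitochondrial ribosome and translation genes, 56 were negative with a median of -0.118, and 1, Mrps24, fell (-0.29 ± 0.06, adjusted p = 0.0101). Of 24 tricarboxylic acid cycle genes, 18 were negative with a median of -0.107, and Sdhb was the one call. With arrays scaled to a common median, 15 respiratory chain genes fell and 0 rose (median -0.201), 6 tricarboxylic acid cycle genes fell (-0.227) and 2 mitochondrial ribosome and translation genes fell (-0.14). Without control 8177, 1 respiratory chain gene fell, and without control 8182, 2 did. These 3 medians kept their sign under all alternatives, and none of their members was called with the beta-actin covariate.

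Fuel genes changed singly. Pygb, a glycogen phosphorylase, read 8.92 and 8.85 on the controls and 7.84, 8.14 and 8.43 on the tTA arrays, and fell by 0.77 on the log2 scale (SE 0.12, adjusted p = 0.000813). The muscle form Pygm stood at 0.07 and was not called, and Gaa, the lysosomal glucosidase that digests glycogen, rose (0.32 ± 0.07, adjusted p = 0.0185). The other Gaa probe set stood at 0.03 and was not called. Hk2, the hexokinase that traps glucose in muscle, fell (-0.49 ± 0.07, adjusted p = 0.000621), from 9.68 and 9.70 on the controls to 8.96, 9.19 and 9.32 on the tTA arrays. Of the subunits of lactate dehydrogenase, Ldha was called higher (0.27 ± 0.06, adjusted p = 0.017) and Ldhb lower (-0.27 ± 0.06, adjusted p = 0.0126). Ldha lost its call with equal medians, no further normalization, only the 10 arrays, or the beta-actin covariate. Ldhb lost its call with that covariate, and its other probe set stood at -0.07 and was not called. Without control 8177 or 8182 both lost their calls, with Ldha at 0.30 and 0.24 and Ldhb at -0.29 and -0.25. Oxct1, the enzyme that lets heart burn ketone bodies, fell (-0.55 ± 0.13, adjusted p = 0.0261), and stood at -0.34 with the beta-actin covariate (adjusted p = 0.56).

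In fatty acid oxidation 1 of 25 genes was called, the enoyl-CoA hydratase Echs1 (-0.42 ± 0.08, adjusted p = 0.00354), and the sign of that list's median depended on the scaling. Pdk4, the kinase that shuts pyruvate dehydrogenase, had the highest value of the list at 0.69 and was not called (adjusted p = 0.37). In the list of esterases, lipid droplets and lipid synthesis 2 of 26 fell, Ces1d and Lclat1, an acyltransferase of cardiolipin. Lclat1 read 8.78 and 8.75 on the controls and 7.68, 7.84 and 8.02 on the tTA arrays (-0.92 ± 0.12, adjusted p = 0.000336), and its call held under every alternative. Mid1ip1, a partner of acetyl-CoA carboxylase in fatty acid synthesis, read 8.75 on control 8177, 8.07 on control 8182, and 6.92, 7.31 and 7.96 on the tTA arrays. Its highest tTA array was only just below control 8182. The difference was -1.06 ± 0.22 (adjusted p = 0.0187), with an adjusted p of 0.427 without control 8177.

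Of 41 glutathione and antioxidant genes, 3 rose, 2 fell and 36 were not called, with a median of -0.0387. Over all genes 0.605% were called higher and 1.31% lower. Besides Gstm5 the rises were Gpx3, the secreted glutathione peroxidase (0.47 ± 0.10, adjusted p = 0.014), and Msrb1, a methionine sulfoxide reductase (0.36 ± 0.08, adjusted p = 0.0259). The falls were Gstk1, the mitochondrial and peroxisomal kappa-class transferase (-0.48 ± 0.09, adjusted p = 0.00527), and Txnrd1, thioredoxin reductase (-0.30 ± 0.07, adjusted p = 0.0281). The other mu-class genes were not called: Gstm1 stood at -0.21, Gstm2 at 0.03, Gstm3 at -0.11 and Gstm6 at -0.05. Lgals1, galectin-1, a sugar-binding protein, read 9.60 and 9.50 on the controls and 9.95, 10.22 and 10.32 on the tTA arrays. It rose by 0.63 ± 0.10 (adjusted p = 0.00155) and was the one call among 16 galectins and annexins.

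Genes that respond to stress and signals were called one at a time. Ier3, an immediate early gene, read 8.46 and 8.20 on the controls and 7.51, 7.71 and 7.82 on the tTA arrays (-0.66 ± 0.09, adjusted p = 0.000457), and 27 of the 28 genes of its list were not called. Nampt, the enzyme of NAD salvage, fell (-0.63 ± 0.09, adjusted p = 0.000433), from 7.77 and 7.42 on the controls to 6.81, 6.93 and 7.22. Gdap10, annotated within the bounds of Nampt, fell by a like amount (-0.69 ± 0.12, adjusted p = 0.00485), and the signals of the pair may not be separate; without control 8177 Gdap10 stood at -0.43 (adjusted p = 0.319). Mt1, metallothionein 1, fell (-0.40 ± 0.07, adjusted p = 0.00353).

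Smaller falls were in Bhlhe40, a repressor of the clock (-0.41 ± 0.10, adjusted p = 0.0369), Hspa9, the mitochondrial Hsp70 (-0.28 ± 0.07, adjusted p = 0.0407), Herpud1 of the endoplasmic reticulum (-0.29 ± 0.07, adjusted p = 0.0387) and Aifm1, apoptosis-inducing factor (-0.32 ± 0.07, adjusted p = 0.0234). Bhlhe40 lost its call under 9 alternatives and stood at -0.20 without control 8182 (adjusted p = 0.552) and at -0.63 without control 8177 (adjusted p = 0.0167). At Bhlhe40 and Herpud1 only 7 of the 8 tTA arrays lay below both controls. Ivns1abp fell by 0.77 on the log2 scale (SE 0.15, adjusted p = 0.0128), and all 8 tTA arrays lay below both controls.

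The remaining rises of the 15 largest were all under 0.5. Hagh, the glyoxalase II enzyme, rose by 0.42 ± 0.09 (adjusted p = 0.0233), Prkcd, protein kinase C delta, by 0.38 ± 0.08 (0.0101), and Wfs1, wolframin of the endoplasmic reticulum, by 0.38 ± 0.07 (0.00371). Prkcd rose at a 2nd probe set as well (0.26, adjusted p = 0.0185). Dpep3 (0.39), Gm1673 (0.36) and Sprr2c-ps (0.35) rose at the named probe set. The 2 other Dpep3 probe sets stood at 0.06 and 0.03, and the other of Gm1673 at 0.14, none called.

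Extracellular matrix and vessel lists had 1 call each, beside 0.605% of all genes called higher and 1.31% called lower. Loxl1, a lysyl oxidase, was the one call of 45 collagens, laminins and matrix genes (0.29 ± 0.07, adjusted p = 0.0452), and it lost the call under 11 alternatives. Emcn, endomucin of capillary and venous endothelium, was the one call of 21 endothelial markers (-0.28 ± 0.07, adjusted p = 0.0391). It lost the call under 8 alternatives and stood at -0.16 without control 8177 (adjusted p = 0.711). Of those markers 17 were negative, with a median of -0.0802 and a summed intensity of 6199 and 6466 on the controls and 5699 to 6148 on the tTA arrays; the part of endothelial content in these values was not tested. By brightest probe sets the fibroblast markers had 0 of 19 called by limma and 0 at an unadjusted p under 0.05. Fbln1 of that list was called lower at another probe set (-0.26). The macrophage and myeloid markers had 0 of 29 and 4. Cell cycle and replication had 0 of 34 and 2, and the cytosolic ribosome 0 of 32 and 4.

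**Figure D4:**
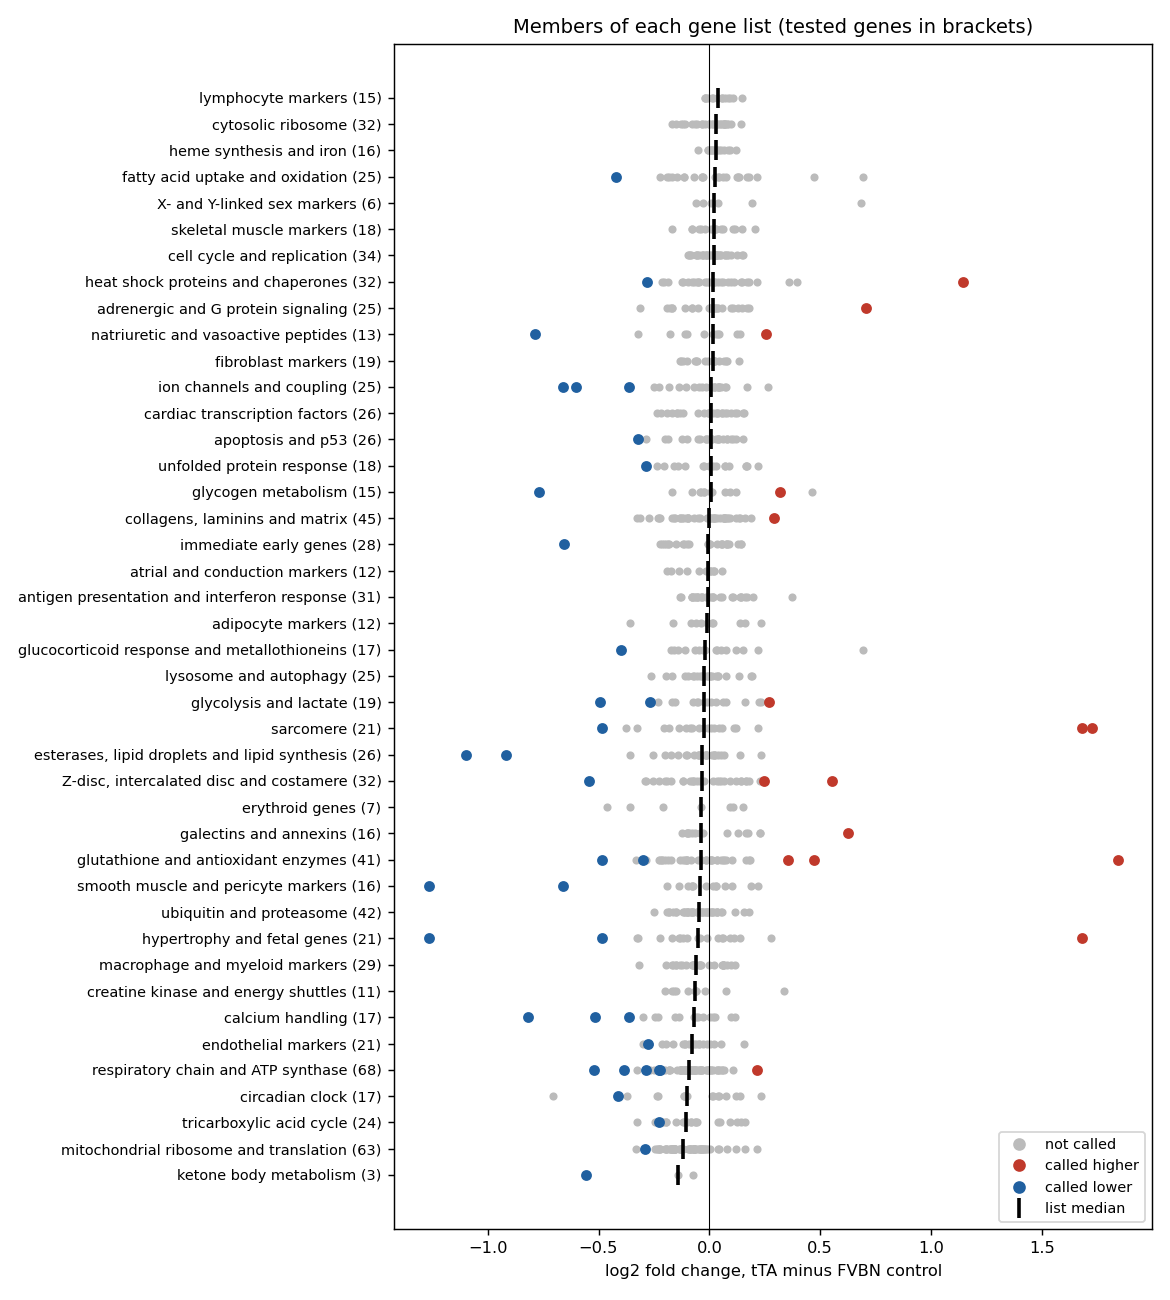
Log2 fold change (tTA minus FVBN control) of each tested member of 42 gene lists, each gene by its brightest probe set; bars mark list medians, red and blue points are called members. The mitochondrial lists have medians near -0.1, and the largest changes are single genes standing apart from their lists.

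Whether the difference between tTA and FVBN changed with doxycycline was tested as an interaction over the other 9 grouped arrays together with these 10. Of 11547 probe sets 1 (0.00866%) passed, while 1351 had an unadjusted p under 0.05. The count was 2 without control 8177 and 3 without control 8182 or tTA array 9322. With all arrays the 1 call was the brighter Gstm5 probe set, with 1.84 ± 0.17 without doxycycline and 0.23 ± 0.14 under it (interaction 1.61 ± 0.22, limma adjusted p = 0.0123). It did not pass without control 8177 (adjusted p = 0.0818) or without control 8182 (0.0565), and passed in every other alternative run. The other called Gstm5 probe set had 2.07 ± 0.29 and 0.60 ± 0.24, and its interaction did not pass (1.47 ± 0.38, adjusted p = 0.263).

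Other leading genes had these values side by side without and under doxycycline: Tpm2 1.73 ± 0.16 and 1.29 ± 0.14, Clu 1.15 ± 0.09 and 1.08 ± 0.08, and Acta1 1.68 ± 0.26 and 0.80 ± 0.22. For Ces1d they were -1.74 ± 0.26 and -1.39 ± 0.22, and for Ryr2 -0.82 ± 0.10 and -0.58 ± 0.09. None of these interactions passed, which does not show that the differences were equal. Ier3 had -0.66 ± 0.09 and -0.02 ± 0.08, and Nampt -0.63 ± 0.09 and -0.02 ± 0.08, each with an interaction adjusted p of 0.107. Of the 57 named calls, 28 were also called in the same direction under doxycycline. The share of all probe sets called under doxycycline is not given here, so these 28 have no background to be read against.

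**Figure D5:**
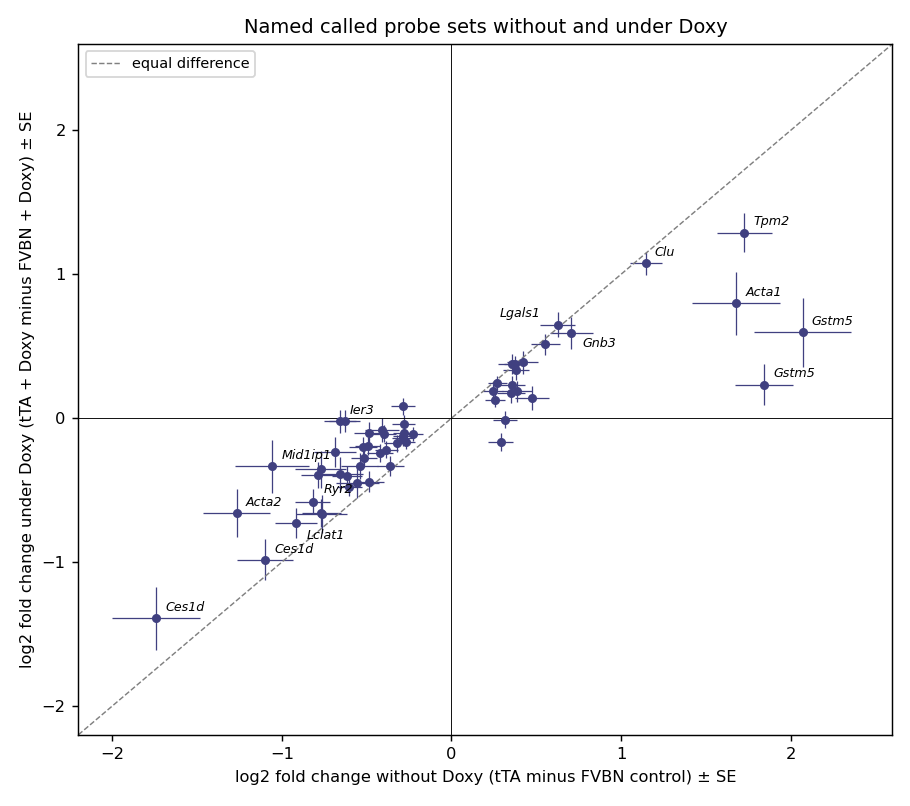
Log2 fold change of the 57 named called probe sets without doxycycline (horizontal) and under doxycycline (vertical), each with its SE; the dashed line marks equal differences. The 2 Gstm5 points lie farthest below the line, and Clu, Lgals1 and Gnb3 lie near it.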

How the data were processed

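The authors deposited 1 table of intensity values on a linear scale for 20 Affymetrix mouse arrays; its summary method, background correction, scaling and centring are not stated in the labels or file header used here. Per the labels, 19 arrays fall into 4 groups, and 1 array with no group was not used in any comparison. Values were quantile normalized over the 19 arrays, set to no less than 14.36 (their 10th percentile), and put on the log2 scale in R 4.3.3 with limma 3.58.1. Control probe sets and the 875 at the floor on all arrays were left out, which left 11547.

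A model with 4 group means was fitted to the 19 arrays with a moderated variance (trend and robust), because 2 controls alone give a poor estimate of the spread. The contrasts were tTA minus FVBN control, tTA + Doxy minus FVBN + Doxy, and the former difference minus the latter. Adjusted p-values are Benjamini-Hochberg over all tested probe sets, and a probe set was called under 0.05. Ratios of control probe sets were compared by exact two-sided permutation over arrays. No count or depth exists for arrays, and precision is limited by the number of arrays. The fit was tested on simulated data.

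Probe sets were named through the platform annotation, updated with a RefSeq gene table (GRCm38.p6), and a gene was named only from a probe set linked to it alone. Named were the 15 called probe sets of largest rise and of largest fall, 1 per gene, for which either group's mean exceeded the overall median, up to 3 called members of each of 42 gene lists (954 genes tested, each by its brightest probe set), and a fixed set of cardiac genes. No probe set read Pln alone. The members and lists were chosen with earlier results of these data known. Alternatives were other scalings, floors, sets of probe sets, array weights, plain moderation, only the 10 arrays, the beta-actin ratio as a covariate, tTA arrays 9310 and 9322 left out, each of the 10 arrays left out, and other probe sets. Plots used Python 3.11.15 and matplotlib 3.10.9.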

Additional observations from a re-analysis of the deposited data

Results flagged for a closer look

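One tTA array stood far from the other 7 at these genes, by its gap to the nearest array relative to the range. Chance gives such a gap in about 1 in 20 groups. The gap was examined at all 57 named calls and at the uncalled genes of the fixed cardiac set, so some such gaps arise by chance. Array 7288 read highest at Tnnt1 (7.279), Gaa (9.730) and Gstk1 (7.829). Array 7292 read highest at Sdhb (11.083), and array 7311 lowest at Hk2 (8.959). Array 9322 read highest at Herpud1 (8.469) and array 9310 highest at Nppa (8.704). The difference between tTA and FVBN at the brighter Gstm5 probe set was larger without than under doxycycline by 1.610 on the log2 scale (limma adjusted p = 0.0123; 0.0818 without control 8177 and 0.0565 without control 8182).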

How the results depend on the processing

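No paired analysis was possible because the array numbers are not shared between the groups. The 191 calls (61 higher, 130 lower) became 122 with only the 10 arrays (30 higher) and 24 with the beta-actin covariate (8 higher, 16 lower). Leaving out 1 array gave 45 to 219 calls, 12 to 71 higher and 32 to 148 lower, lowest without control 8177 (45) or 8182 (61); the control left is then assumed to vary like the other groups. Higher calls were 38 with equal medians and 97 with the brightest 40% of probe sets. Interaction calls, 1 as reported, were 2 with equal medians or no further normalization, 5 with the brightest 40%, 3 without tTA arrays 9310 and 9322, and 1 to 3 with 1 array left out; the cause was not tested. The beta-actin difference of -0.226 became 0.0416 against the middle probe set and 0.0252 for Gapdh, both in the other direction, and -0.243 to -0.201 with 1 array left out, where the smallest p possible is 0.0556 or 0.222. On the probe set named, 8 of 57 named calls passed in all alternatives and 0 reversed; 46 were lost with the beta-actin covariate, 42 without 8177 and 31 without 8182. At other probe sets 8 of 27 values were also called, 17 were not, and Tpm2 (-0.059) and Itpr2 (0.030) had the other sign. Of the list medians 820 moved by less than the spread between arrays and 62 by more.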

Other observations

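Further called genes, chosen after their values were seen, stood in none of the leading groups. Bckdhb, a subunit of the branched-chain keto acid dehydrogenase, changed by -0.49 ± 0.08 (limma adjusted p = 0.00212), Mcee, methylmalonyl-CoA epimerase, by -0.45 ± 0.09 (0.00884), and Phyh, the peroxisomal phytanoyl-CoA hydroxylase, by -0.40 ± 0.07 (0.00416). Acss1, the mitochondrial acetyl-CoA synthetase, changed by -0.53 ± 0.12 (0.0235). Gmnn, geminin, changed by -0.54 ± 0.07 (0.000318), Nsmce1, a subunit of the SMC5/6 complex, by -0.50 ± 0.06 (2.03e-05), and Ung, uracil DNA glycosylase, by -0.43 ± 0.07 at 1 probe set (0.000645), with its other at 0.03 and not called. Pkig, an inhibitor of protein kinase A, changed by -0.51 ± 0.06 (9.81e-05), and Sox4, a transcription factor, by -0.51 ± 0.08 and -0.25 ± 0.06 at its 2 probe sets, both called.

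Hagh and Msrb1 lie near each other on chromosome 17 with 1 annotated gene between them (RefSeq, GRCm38.p6). Both were higher in tTA without doxycycline (0.42 ± 0.09 and 0.36 ± 0.08) and under it (0.39 and 0.37, limma adjusted p = 0.00775 and 0.00391). Vldlr changed by -0.53 ± 0.08 at 1 probe set (adjusted p = 0.00083) and by -0.10 at another, which was not called. Called members were 0 by limma in the lists of cardiac transcription factors (26 tested, 5 at an unadjusted p under 0.05), creatine kinase and energy shuttles (11, 3), ubiquitin and proteasome (42, 10), lysosome and autophagy (25, 3), antigen presentation and interferon response (31, 0) and heme synthesis and iron (16, 0).

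The array with no group read 7.16 at Gstm5, 6.46 at Tpm2, 9.60 at Acta1, 8.64 at Clu and 7.42 at Ces1d, at the probe sets of largest change. At 48 of the 57 named calls its value lay nearer the FVBN control mean and at 9 nearer the tTA mean.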
